A study of Mus musculus with 2 samples.

Results

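The interferon-gamma-induced GTPases described here are 10 genes, taken by symbol from the 32285 genes of the count matrices. They are the guanylate-binding proteins Gbp2, Gbp3, Gbp4, Gbp5 and Gbp7 and the immunity-related GTPases Igtp, Irgm1, Iigp1, Ifi47 and Tgtp2. They were measured by single-cell RNA sequencing in livers of mice with steatohepatitis whose marrow lacked or carried Trem2, a lipid-sensing receptor of macrophages. One group received Trem2-/- marrow and the other received marrow from Trem2+/+ littermates. All recipients were male C57Bl6/J mice that had been lethally irradiated, recovered for 6 weeks and then ate a methionine- and choline-deficient diet for 4 weeks. The genotype is that of the marrow, so cells that outlive irradiation, such as endothelial cells, are of the recipient. Live CD45+ cells of 4 mice were pooled in each group, and each pool gave 1 library. The animals of a pool cannot be separated, so no test between the groups was possible. Each value below is that of 1 library, and its 95% interval covers counting error only.

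Both GTPase families are induced by interferon-gamma, in part through the transcription factor Irf1, and act on membranes inside the cell. Guanylate-binding proteins gather on vacuoles that hold bacteria or parasites and help to open them, and several of them promote inflammasome activation. Immunity-related GTPases fall into effectors, which load onto such vacuoles, and regulators, which keep the effectors inactive on the cell's own membranes. In the mouse, Iigp1, Ifi47 and Tgtp2 belong to the effectors and Igtp and Irgm1 to the regulators.

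The last 120 bases before the start of transcription are shown for the 3 genes that carry both of the classical interferon response patterns there. The sequences are RefSeq promoter windows of build GRCm38.p6. Capitals mark either TTCNNNGAA, the core of the gamma-activated site, or GAAA, 2 free bases and GAAA, the core of the element bound by interferon regulatory factors, on either strand.
Gbp7, chr3:142530216-142530335, plus strand: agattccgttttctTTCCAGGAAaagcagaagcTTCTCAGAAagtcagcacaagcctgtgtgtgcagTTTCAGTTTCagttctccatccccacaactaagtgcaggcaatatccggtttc
Igtp, chr11:58199436-58199555, plus strand: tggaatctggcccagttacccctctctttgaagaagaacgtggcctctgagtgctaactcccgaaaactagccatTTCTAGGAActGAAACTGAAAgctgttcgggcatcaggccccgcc
Tgtp2, chr11:49064213-49064332, minus strand: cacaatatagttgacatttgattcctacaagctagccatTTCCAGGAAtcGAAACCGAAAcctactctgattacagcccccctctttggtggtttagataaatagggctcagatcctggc
In Igtp and Tgtp2 the patterns stand next to each other with 2 bases between them, beginning 45 and 81 bases before the start.

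Windows were matched for 8 of the genes, all but Gbp4 and Iigp1, and the 250 bases before each start were searched. The first pattern was present before Gbp5, Gbp7, Igtp and Tgtp2, against 7.02% of all 32851 windows. The second pattern was present before Gbp2, Gbp3, Gbp5, Gbp7, Igtp, Irgm1 and Tgtp2, against 2.98% of all windows, although a second annotated start of Gbp3 lacked it. A match describes the letters and is not a measured binding site.

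In the GENCODE M21 annotation of mm10, all of the genes are protein-coding and most lie in clusters. Gbp5, Gbp7, Gbp3 and Gbp2 follow one another on chromosome 3 between 142493978 and 142638008, whereas Gbp4 lies on chromosome 5 between 105115767 and 105139586. Irgm1 (48861968 to 48871683), Tgtp2 (49057194 to 49064206), Ifi47 (49076587 to 49096974) and Igtp (58199556 to 58207591) lie on chromosome 11, and Iigp1 lies on chromosome 18. Sequence shared with other genes limits some of the values. Of the 50-base stretches of the Tgtp2 transcript, 90.6% also occur in transcripts of other genes, and 89.8% occur in Tgtp1. The split of counts between Tgtp2 and Tgtp1 is therefore uncertain. For Igtp the share was 12.3%, all with Irgm2, which overlaps it on the same strand. For Gbp7 it was 12.9% and for Gbp4 12.8%, and for the other 6 genes it was at most 4.79%. Reads of 5' chemistry lie near the start of a transcript, and of the stretches beginning in the first 300 bases 75% were shared for Tgtp2, 39% for Igtp, 30% for Gbp4 and 21.3% for Ifi47, against none for the other genes.

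Filtering left 5973 of 6362 barcodes with Trem2-/- marrow and 6596 of 7012 with Trem2+/+ marrow, with medians of 2932 and 2492 UMIs per cell. A UMI marks 1 counted RNA molecule. Trem2, the check of the labels, had 154 UMIs in all Trem2-/- cells and 5478 in all Trem2+/+ cells. In macrophages it was at 27.9 and 530 UMIs per 1000000 class UMIs (CPM). Clusters were named from marker genes, and 10 classes held at least 100 cells in each library. No marker of its own was at 0 in any of these classes. Endothelial cells were present despite the CD45 sort, and the CD45 gene Ptprc was at 56.7 and 85.0 CPM in them, against 1066 and 995 CPM in T cells.

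Among these 10 classes, by the mean of both libraries, endothelial cells and T cells carried the highest summed levels of the 10 genes, and B cells and type 1 conventional dendritic cells (cDC1) the lowest. Over all kept cells the sum was 513 CPM (504 to 522) with Trem2-/- marrow, against 384 CPM (376 to 391) with Trem2+/+ marrow. By class, endothelial cells had 663 CPM with Trem2-/- and 660 CPM with Trem2+/+ marrow, and T cells had 607 and 629 CPM. Below them came neutrophils (723 and 395 CPM), NK/ILC1 (561 and 544 CPM), Kupffer cells (587 and 455 CPM) and Ly6C-high monocytes (516 and 487 CPM). Macrophages (529 and 317 CPM) and type 2 conventional dendritic cells (cDC2, 509 and 301 CPM) were next. From T cells down to cDC2 the ranges of neighbouring classes overlapped. B cells (216 and 149 CPM) and cDC1 (184 and 87.0 CPM) lay below the range of cDC2 and overlapped each other. Endothelial cells, T cells, NK/ILC1 and Ly6C-high monocytes were nearly level between the libraries, whereas macrophages, neutrophils and both dendritic classes were higher with Trem2-/- marrow.

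**Figure D1:**
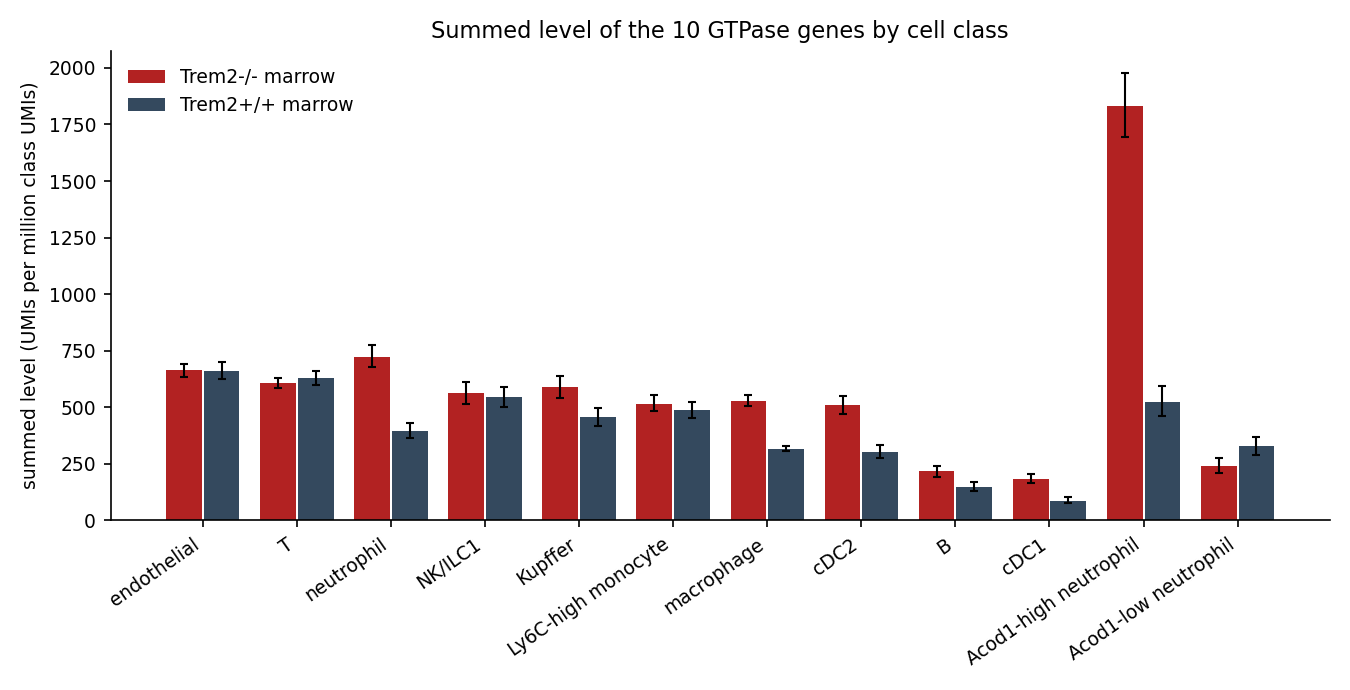
Summed level of the 10 GTPase genes in CPM for each cell class, with the Trem2-/- library left of the Trem2+/+ library; each value is a single library and whiskers are 95% Poisson intervals of the count. Acod1-high neutrophils, one of the neutrophil clusters, stand at 1833 against 525 CPM.

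The guanylate-binding protein genes differed in the classes that led them, over the same 10 classes. Gbp2, whose protein is recruited to parasite vacuoles, was highest in neutrophils, with 269 CPM in Trem2-/- and 160 CPM in Trem2+/+ cells. Next came Ly6C-high monocytes (127 and 97.9 CPM), macrophages (142 and 78.8 CPM) and cDC2 (164 and 51.7 CPM), whose ranges overlapped. Gbp5, which promotes inflammasome assembly, was led by neutrophils (74.7 and 47.5 CPM) and Ly6C-high monocytes (52.6 and 59.4 CPM). Macrophages followed at 56.8 and 31.6 CPM, whereas cDC2 had 16.9 and 8.39 CPM. Gbp4 showed another pattern, with 93.3 and 83.1 CPM in NK/ILC1, 80.1 and 77.8 CPM in T cells and 73.4 and 83.9 CPM in endothelial cells. In neutrophils Gbp4 had 11 and 2 UMIs, and in Ly6C-high monocytes 14 and 2 UMIs, or at most 9.13 CPM. Gbp7 was likewise highest in T cells (90.1 and 91.7 CPM), NK/ILC1 (77.4 and 80.3 CPM) and endothelial cells (68.3 and 74.8 CPM), and Kupffer cells (73.0 and 61.3 CPM) overlapped the endothelial range. Gbp3 was highest in Kupffer cells, at 78.3 and 63.2 CPM, and lowest in cDC1, at 2.91 and 1.58 CPM.

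Among the immunity-related GTPase genes, Iigp1 was the most concentrated in these classes. This vacuole-loading effector was at 250 CPM (233 to 268) in Trem2-/- and 196 CPM (177 to 217) in Trem2+/+ endothelial cells. Kupffer cells, which line the same sinusoids, came next with 94.2 and 55.7 CPM, and no other of the 10 classes exceeded 23.7 CPM in either library. Ifi47, another effector, was highest by the mean of both libraries in T cells, at 175 and 194 CPM. NK/ILC1 (169 and 175 CPM) and Ly6C-high monocytes (145 and 154 CPM) followed. Neutrophils, at 188 and 55.7 CPM, overlapped the monocyte range and were the highest class in the Trem2-/- library. Tgtp2 was highest in T cells, at 45.3 and 31.3 CPM, with overlapping ranges of neighbours down the whole order. The regulator Igtp was highest in T cells, at 59.1 and 77.5 CPM. The regulator Irgm1 was highest in endothelial cells, at 74.0 and 89.8 CPM, followed by cDC2 at 72.7 and 51.7 CPM.

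**Figure D2:**
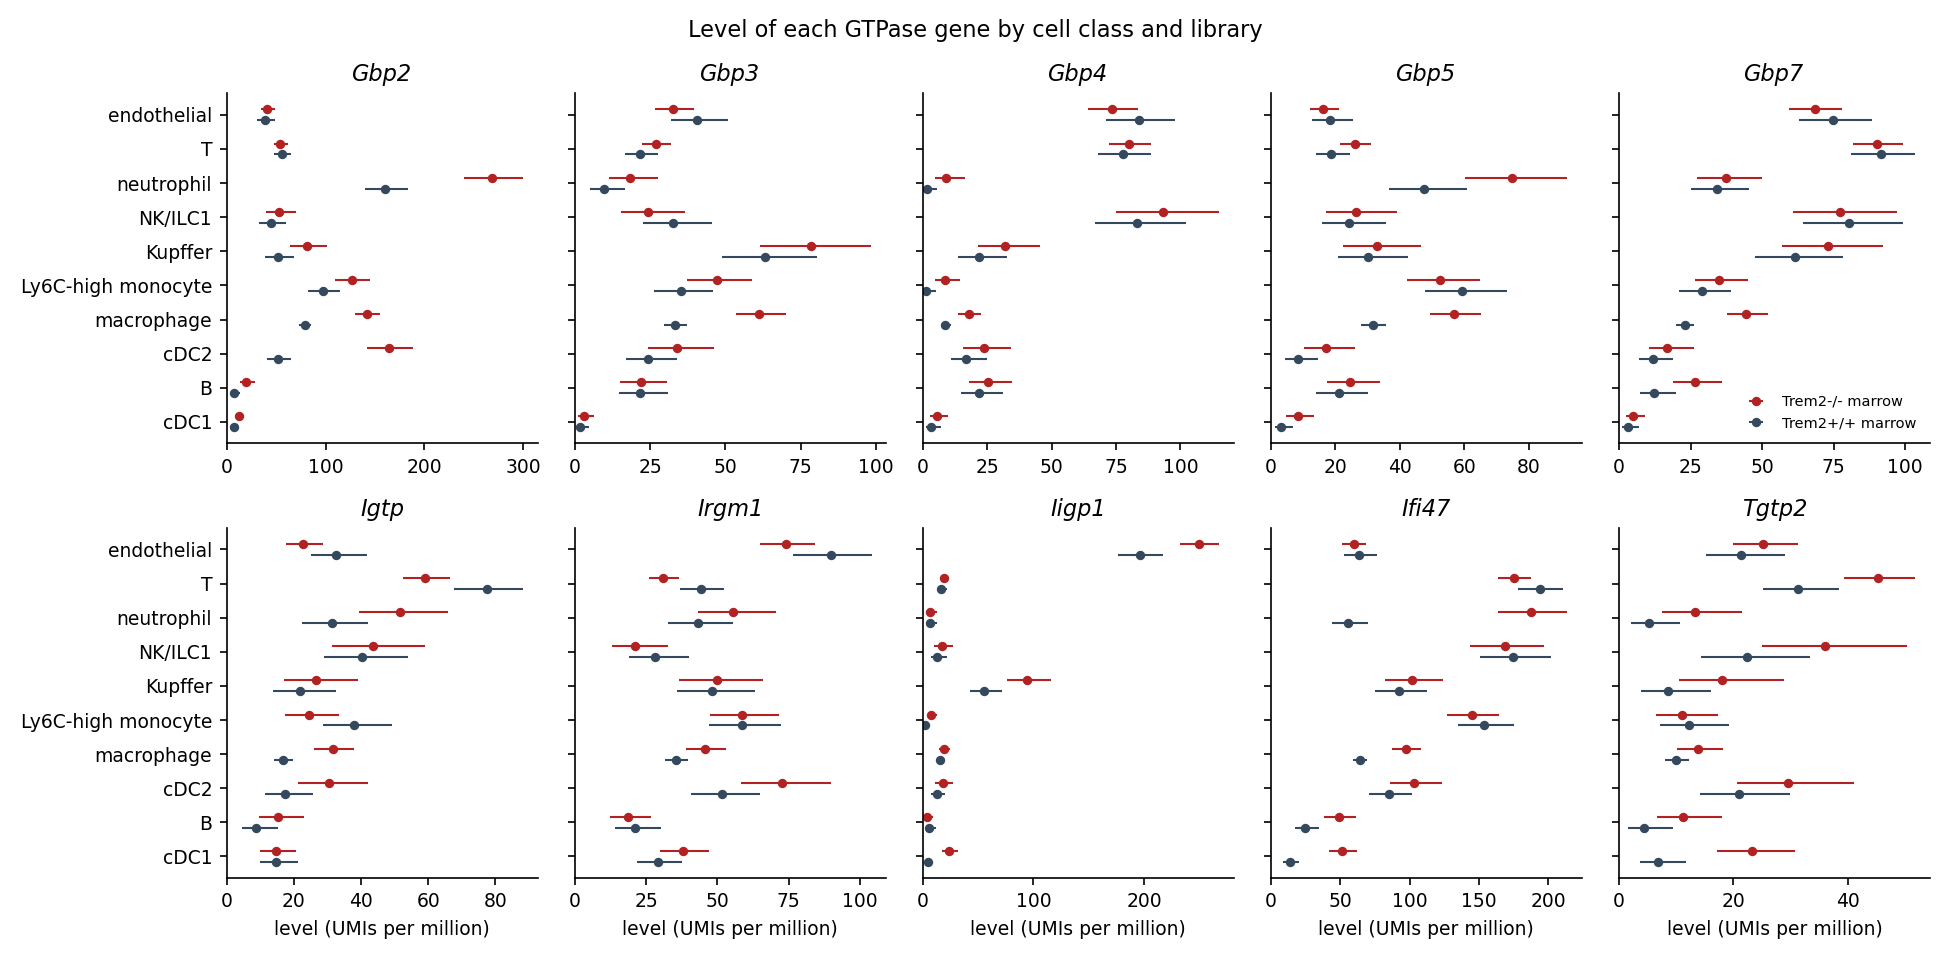
Level of each gene in CPM by cell class, with the Trem2-/- library above the Trem2+/+ library; each point is a single library, lines are 95% Poisson intervals and the scales differ between genes. Iigp1 stands at 250 and 196 CPM in endothelial cells, and Gbp4 is at most 9.13 CPM in neutrophils and Ly6C-high monocytes.

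The genes did not share one pattern over classes. As a description over 20 points (10 classes in 2 libraries, where points of a library share its depth), the closest pair was Ifi47 and Igtp, with a Pearson correlation of 0.82 on log2(CPM + 1). Gbp5 and Gbp2 followed with 0.74. The least alike were Tgtp2 and Gbp5, at -0.15, and Iigp1 and Gbp5, at -0.14. Of 6098 other genes, the 10 whose levels most resembled the mean of the GTPase genes included H2afj, Hip1, Vopp1, Ifi27, Dennd4c, Xdh, Tbc1d2b, Atp2b4 and Parp14, with correlations between 0.78 and 0.72. By Spearman correlation 2 of the 10 were again among the top 10, so the list depends on the measure.

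The ratio of the Trem2-/- to the Trem2+/+ library was then taken within each class, on the log2 scale. A gene is called higher or lower here when its CPM differed by at least 1.5-fold. Background percentages are given over all genes with a ratio and over the better-counted genes, meaning those averaging 20 CPM or more in the class. The average is over both libraries, so a gene under 20 CPM in a single library can pass through the other. The median log2 ratio of the better-counted genes lay between -0.04 and 0.10 in every class.

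**Figure D3:**
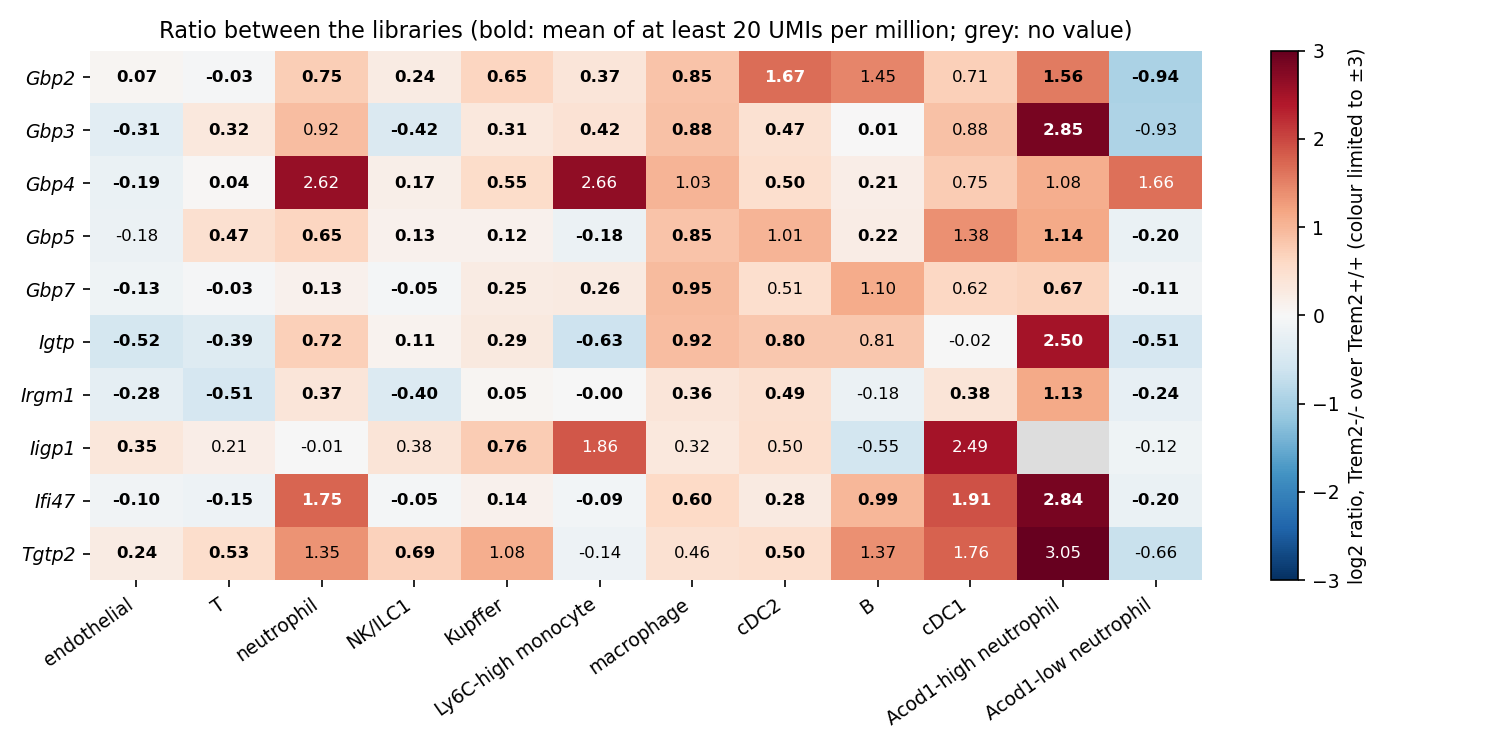
Log2 ratio of the Trem2-/- over the Trem2+/+ library for each gene and cell class, in bold for genes averaging 20 CPM or more and grey where no value was given. Macrophages are above 0 for every gene and Acod1-high neutrophils for every gene with a value, where Gbp4 (1.08) is a lower bound; T cells lie between -0.51 and 0.53.

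In macrophages the family was higher with Trem2-/- marrow almost throughout. Gbp2 was at 142 CPM (505 UMIs) in Trem2-/- and 78.8 CPM (708 UMIs) in Trem2+/+ macrophages, a log2 ratio of 0.85 (0.68 to 1.02). Gbp3 (61.3 and 33.3 CPM), Gbp5 (56.8 and 31.6 CPM), Gbp7 (44.5 and 22.9 CPM) and Igtp (31.5 and 16.7 CPM) had log2 ratios of 0.88, 0.85, 0.95 and 0.92. Gbp4 was at 17.7 and 8.69 CPM and had the highest ratio, 1.03 (0.53 to 1.53). The effector Ifi47 was at 97.1 and 63.9 CPM, a log2 ratio of 0.60 (0.41 to 0.80). Irgm1 (45.6 and 35.4 CPM), Iigp1 (19.1 and 15.4 CPM) and Tgtp2 (13.8 and 10.0 CPM) were under 1.5-fold, and the intervals of Iigp1 and Tgtp2 held 0. In all, 7 of the 10 genes were higher and none lower, against 10.1% of all genes higher and 10.4% lower. Of the 7 better-counted members 6 were higher and none lower, against 1.94% and 1.57% of such genes. Among the 6, Igtp was under 20 CPM in Trem2+/+ cells and passed that limit through the Trem2-/- library. The median log2 ratio of the 10 genes was 0.85, beside 0.00 for the better-counted genes of the class. At a fold of 2 the count was 1, Gbp4, which averaged under 20 CPM. None of the better-counted members was higher at that fold, against 0.407% of such genes.

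The macrophage class holds 3 clusters that did not contribute alike. In the cluster led by Gpnmb, a gene of lipid-associated macrophages, the summed level was 552 CPM in 294 Trem2-/- cells and 292 CPM in 839 Trem2+/+ cells. There Gbp2 was at 179 and 91.0 CPM and the median log2 ratio was 0.94. In the cluster led by Pf4 and Ms4a7 the sum was 489 CPM in 111 cells and 392.3 CPM in 301 cells, and Gbp2 was level at 53.7 and 54.4 CPM. In the last cluster, of 69 and 372 shallow cells with a median of 700 UMIs, the sum was 361 and 251 CPM. That cluster was led by Pf4 and scored higher for platelet than for macrophage markers. Trem2-/- macrophages had more UMIs per cell (medians of 7306 and 5363) and more of the 8 Ly6C-high monocyte markers (1831 and 1256 CPM summed, none at 0). Dissociation stress genes had a median log2 ratio of 0.25 in the class. The part of these in the ratio was not tested.

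Neutrophils split into clusters whose values differed. In the smaller cluster, led by Il1f9 and by Acod1, which encodes the enzyme that makes itaconate, the summed level was 1833 CPM (1696 to 1977) in 164 Trem2-/- cells and 525 CPM (461 to 595) in 245 Trem2+/+ cells. Gbp2 was at 757 CPM (276 UMIs) and 257 CPM (119 UMIs), a log2 ratio of 1.56 (1.24 to 1.88). Ifi47 was at 527 CPM (192 UMIs) and 73.4 CPM (34 UMIs), a log2 ratio of 2.84 (2.31 to 3.41). Gbp5 (195 and 88.5 CPM), Igtp (110 and 19.4 CPM) and Irgm1 (104 and 47.5 CPM) were also higher, with log2 ratios of 1.14, 2.50 and 1.13. Gbp3 had 17 and 3 UMIs, Tgtp2 13 and 2 UMIs and Gbp7 15 and 12 UMIs. Gbp4 had 5 UMIs in Trem2-/- cells and none in Trem2+/+ cells, where a count of 0 allows up to 6.48 CPM. Iigp1 had 1 UMI in each library. All 9 genes with a value were higher, against 17% of all genes higher and 24.7% lower. So were all 7 better-counted members, against 10.9% and 14% of such genes. Of these members, Gbp3 and Igtp were under 20 CPM in Trem2+/+ cells and passed that limit through the Trem2-/- library. The median log2 ratio was 1.56, beside -0.04 for the better-counted genes.

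In the larger neutrophil cluster, led by Retnlg and low in Acod1, the sum was lower with Trem2-/- marrow, and a few cells held part of it. The summed level was 242 CPM (210 to 277) in 377 Trem2-/- cells and 327 CPM (290 to 367) in 470 Trem2+/+ cells. Gbp2 was at 57.2 CPM (48 UMIs) and 110 CPM (97 UMIs), a log2 ratio of -0.94 (-1.47 to -0.43). No other of the 10 genes had an interval that left out 0. Of the 10 genes 1 was higher and 3 were lower, against 14.2% of all genes higher and 19.9% lower. Of the 6 better-counted members none was higher and Gbp2 alone was lower, against 4.89% and 7.97% of such genes. With so few genes, these counts cannot be set apart from the background shares. Without the 5% of cells with the most UMIs of the 10 genes, none was lower and the Gbp2 ratio turned to 0.24. That setting removes cells by the measured values and is no check of stability. UMIs of at least 5 of the genes were in 2 Trem2-/- and 4 Trem2+/+ cells, with 11.3% and 33.2% of the UMIs of the 10 genes. Their doublet scores were at the 88.4 and 78.7 percentile. Neutrophil markers were at 43640 and 22171 CPM in them, against 131150 and 116990 CPM in the remaining cells. Endothelial markers were at 6259 and 145 CPM and T cell markers at 0 and 2217 CPM. Their part was not tested. With both clusters together 7 genes were higher and none lower, against 13% and 17.3% of all genes. Of the 6 better-counted members 4 were higher, against 3.46% higher and 5.2% lower among such genes. A coarser clustering merged the clusters.

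A few cells held much of the signal in neutrophils. Among Acod1-high neutrophils, 14 of 164 Trem2-/- cells had UMIs of at least 5 of the genes and held 76.3% of all UMIs of the 10 genes. In the Trem2+/+ library it was 5 of 245 cells and 46.9%. The highest cell held 75 such UMIs in the Trem2-/- library and 32 in the Trem2+/+ library, and 96 and 183 cells held none. These 14 and 5 cells had medians of 2485 and 2407 UMIs in all, close to the cluster's 2236 and 1881, and doublet scores at the 50.2 and 54.6 percentile. Neutrophil markers were at 43667 and 52252 CPM in them, against 81314 and 76132 CPM in the remaining cells of the cluster. Macrophage markers were at 1333 CPM in the Trem2-/- and 288 CPM in the Trem2+/+ cells, and T cell markers at 29.0 CPM (1 UMI) and 937 CPM (13 UMIs). In the remaining cells macrophage markers were at 888 and 1042 CPM and T cell markers at 45.5 and 40.1 CPM. The part of these markers was not tested.

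In macrophages 62 of 474 Trem2-/- cells (13.1%) had UMIs of at least 5 of the genes, against 71 of 1512 Trem2+/+ cells (4.70%). They held 57.7% and 42.0% of the UMIs of the 10 genes, with medians of 10424 and 10104 UMIs in all, against 6963.5 and 5030 in the remaining macrophages.

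To compare cells at equal depth, each was thinned to 1000 UMIs, and 847 shallower Trem2-/- and 1132 shallower Trem2+/+ cells were left out. Cells with UMIs of at least 3 of the genes then made up 2.54% (130 of 5126) of Trem2-/- cells and 1.72% (94 of 5464) of Trem2+/+ cells. In macrophages the share was 4.68% (20 of 427) and 1.23% (15 of 1216), with intervals of 2.88 to 7.14 and 0.692 to 2.03. In Acod1-high neutrophils it was 9.32% (15 of 161) and 3.91% (9 of 230), with overlapping intervals of 5.31 to 14.9 and 1.80 to 7.30. T cells had 2.78% and 3.08%, and endothelial cells 2.48% and 2.99%. The Trem2-/- share was the lower one in Ly6C-high monocytes (2.36% and 4.55%), NK/ILC1 (0.478% and 2.27%) and Acod1-low neutrophils (0.567% and 1.48%), with overlapping intervals. B cells had 0.943% and 0.149%. In cDC1 it was 0.578% and 0 of 206 cells, where a limit of 3 counts allows up to 1.46%. No class is known to lack these genes, so the part of free RNA was not tested. Without thinning, the shares over all kept cells were 17.8% and 12.4%.

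**Figure D4:**
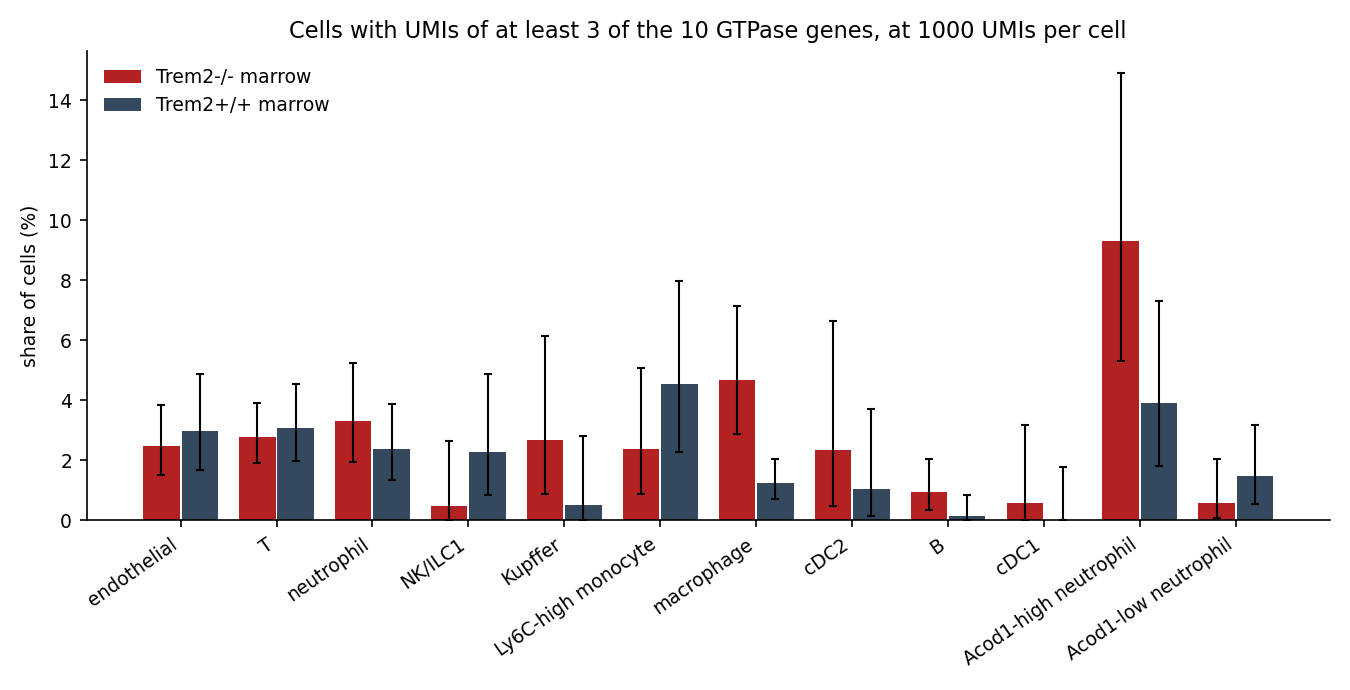
Share of cells, in percent, with UMIs of at least 3 of the 10 genes after thinning to 1000 UMIs per cell, in the Trem2-/- and the Trem2+/+ library; whiskers are exact 95% binomial intervals over cells. Acod1-high neutrophils stand at 9.32% and 3.91%, and macrophages at 4.68% and 1.23%.

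Conventional dendritic cells had median log2 ratios of 0.82 in cDC1 and 0.50 in cDC2. In cDC1, the cross-presenting class, Ifi47 was at 51.4 CPM (106 UMIs) in Trem2-/- and 13.7 CPM (26 UMIs) in Trem2+/+ cells, a log2 ratio of 1.91 (1.28 to 2.58). Iigp1 (49 and 8 UMIs) and Tgtp2 (48 and 13 UMIs) had log2 ratios of 2.49 and 1.76, so all 3 effectors were higher. The regulators were closer, with Irgm1 at 37.8 and 29.0 CPM and Igtp at 14.5 and 14.8 CPM. In all 8 genes were higher and none lower, against 9.79% and 11.2% of all genes, but 5 of the 8 had at most 25 UMIs in either library. Of the 2 better-counted members Ifi47 was higher, against 1.62% higher and 1.72% lower among such genes. Ifi47 was under 20 CPM in Trem2+/+ cells and passed that limit through the Trem2-/- library. In cDC1 7 Trem2-/- and 2 Trem2+/+ cells with UMIs of at least 5 of the genes held 42.1% and 19.4% of the UMIs of the 10 genes. Their medians were 18172 and 16282 UMIs in all, against 12056 and 9441 in the remaining cells. The 9 neutrophil markers summed to 132 CPM in Trem2-/- cDC1, with 1 at 0, and 911 CPM in Trem2+/+ cDC1, with none at 0. The 10 macrophage markers summed to 70.7 and 165 CPM, with none at 0. The part of these markers in the ratios was not tested.

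In cDC2 the leading gene was Gbp2, at 164 CPM (194 UMIs) in Trem2-/- and 51.7 CPM (74 UMIs) in Trem2+/+ cells, a log2 ratio of 1.67 (1.27 to 2.07). Without the 5% of barcodes with the highest doublet scores that ratio was 0.79. Gbp5 and Igtp were also higher, which made 3 of 10 with none lower, against 12.8% and 12.9% of all genes. Of the 7 better-counted members 2 were higher, against 4.81% higher and 3.03% lower among such genes. Of these 2, Igtp was under 20 CPM in Trem2+/+ cells and passed that limit through the Trem2-/- library. All 10 genes had a ratio above 0 in cDC2, with a median of 0.50. A single Trem2-/- cDC2 held 121 of the 602 UMIs of these genes in its class. Neutrophil markers summed to 285 CPM in Trem2-/- and 69.9 CPM in Trem2+/+ cDC2 and macrophage markers to 591 and 978 CPM, with none at 0. The 8 mature dendritic cell markers summed to 459 CPM, with 2 at 0, and 755 CPM, with none at 0. The part of these markers in the ratios was not tested either.

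Kupffer cells, Ly6C-high monocytes and B cells had median log2 ratios of 0.30, 0.13 and 0.51. In Kupffer cells Iigp1 was at 94.2 CPM in Trem2-/- and 55.7 CPM in Trem2+/+ cells and Gbp2 at 81.5 and 51.9 CPM, log2 ratios of 0.76 and 0.65, and Tgtp2 had 17 and 9 UMIs. These 3 genes were higher and none lower, against 14.1% and 13.9% of all genes, and 2 of the 9 better-counted members were higher, against 7.39% higher and 5.66% lower. No gene reached that fold without the 5% of cells with the most UMIs of the 10 genes. That choice removes cells by the measured values and is no check of stability. In Ly6C-high monocytes Gbp4 and Iigp1 were higher, against 11.5% of all genes, but with at most 14 UMIs, and Igtp was lower, against 11.4%. Igtp was at 24.4 and 37.8 CPM, and of the 7 better-counted members it alone differed, against 2.34% higher and 2.71% lower. Its direction reversed under 4 alternatives.

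In B cells 5 genes were higher and none lower, against 14.1% and 8.54% of all genes. Ifi47 led by counts, at 49.0 CPM (74 UMIs) in Trem2-/- and 24.7 CPM (34 UMIs) in Trem2+/+ cells, a log2 ratio of 0.99 (0.39 to 1.62). Of the 4 better-counted members Ifi47 alone was higher, against 4.02% higher and 1.96% lower among such genes. Gbp7 had 40 and 17 UMIs and Gbp2 30 and 10 UMIs in B cells.

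T cells, NK/ILC1 and endothelial cells, the classes with high levels of Gbp4 and Gbp7, were close between the libraries. In T cells no gene was higher or lower, against 14.6% and 6.96% of all genes and 4.08% and 0.66% of the better-counted ones, and the median was 0.01. With the T cell clusters weighted equally, 1 gene was higher and 1 lower. Their Igtp was at 59.1 CPM in Trem2-/- and 77.5 CPM in Trem2+/+ cells, a log2 ratio of -0.39 (-0.65 to -0.13), and their Irgm1 at 31.0 and 44.1 CPM, a ratio of -0.51 (-0.87 to -0.15). Tgtp2 went the other way, at 45.3 and 31.3 CPM, a ratio of 0.53 (0.17 to 0.91). The cluster led by Gzmk and Pdcd1 had a summed 585 CPM in 570 Trem2-/- cells and 762 CPM in 313 Trem2+/+ cells, with Igtp at 42.3 and 86.8 CPM and Ifi47 at 170 and 231 CPM. The clusters took different shares of the libraries, and the one with Lef1 and Tcf7 held 249 of 1181 Trem2-/- and 331 of 808 Trem2+/+ T cells. Its sum was 518 and 470 CPM, with Tgtp2 at 49.9 and 31.3 CPM and Irgm1 at 21.4 and 33.7 CPM. The cluster with Cd40lg and Icos, of 362 and 164 cells, had a sum of 698 and 712 CPM, with Tgtp2 at 67.8 and 36.9 CPM and Igtp at 87.8 and 116 CPM. The part of this shift in the class ratios was not tested beyond the equal weighting. In NK/ILC1 Tgtp2 alone was higher, at 36.0 and 22.4 CPM, and none was lower, against 14.5% and 10.1% of all genes and 5.14% and 2.95% of the better-counted ones.

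In endothelial cells no gene was higher or lower, against 10.1% and 8.67% of all genes and 1.3% and 1.19% of the better-counted ones. Iigp1 had a log2 ratio of 0.35 (0.17 to 0.53) and Igtp one of -0.52 (-1.04 to -0.01). In the smaller endothelial cluster Iigp1 was at 296 CPM (107 UMIs) in Trem2-/- and 120 CPM (44 UMIs) in Trem2+/+ cells. Other genes were lower in that cluster, with Gbp3 at 30.5 and 59.9 CPM, Igtp at 33.2 and 65.3 CPM and Gbp5 at 5 and 10 UMIs, and its median log2 ratio was -0.24. That cluster was shallow, with a median of 880 UMIs per cell against 3805 in the larger one, so these values rest on few UMIs. The part of depth was not tested, and no background share was taken for single clusters.

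Genes around the pathway were read from lists, over members averaging 20 CPM or more in the class. Ifng itself was mostly in T cells, which held 67.8% of its UMIs in the Trem2-/- and 59.4% in the Trem2+/+ library, at 284 and 172 CPM. In NK/ILC1 it was at 128 and 144 CPM. Of 11 counted genes of interferon-gamma, its receptor and its signalling, 1 was higher in macrophages, the feedback inhibitor Socs3 (222 and 132 CPM). Socs3 is also a member of the dissociation stress list. The transcription factor Irf1 (201 and 148 CPM) had a log2 ratio of 0.44 there, and the receptor chain Ifngr1 was at 326 and 337 CPM. In Acod1-high neutrophils 3 of 11 were higher, among them Irf1 (568 and 281 CPM) and the inhibitor Socs1 (104 and 54.0 CPM), and the phosphatase gene Ptpn2 was lower (43.9 and 88.5 CPM). Among all better-counted genes 10.9% were higher and 14% lower in that cluster, and 1.94% and 1.57% in macrophages. Of the genes that induce interferon-gamma, at most 3 of 6 were counted in a class, and neither of 2 was higher in macrophages.

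Other interferon-gamma-induced genes, a list that shares Irf1 and Socs1, among others, with the signalling list, were higher in part of the classes. In Acod1-high neutrophils 9 of 14 were higher and 1 lower, with a median of 0.74, led by the T cell attractant Cxcl9 at 184 CPM in Trem2-/- and 32.4 CPM in Trem2+/+ cells. In macrophages 3 of 15 were higher, with a median of 0.35, namely Cxcl9 (320 and 107 CPM), Cxcl10 (449 and 218 CPM) and the serpin gene Serpina3g (49.2 and 24.2 CPM). In cDC2 5 of 16 were higher, with a median of 0.30. In Kupffer cells 3 were higher and 3 lower of 15, and Cxcl9 was lower there, at 30.7 and 101 CPM. Among all better-counted genes 10.9% were higher and 14% lower in Acod1-high neutrophils, and 1.94% and 1.57% in macrophages. These shares were 4.81% and 3.03% in cDC2 and 7.39% and 5.66% in Kupffer cells. T cells and endothelial cells had medians of 0.08 and 0.00. Of the relatives in the 2 GTPase families, Kupffer cells had 6 counted, of which 3 were higher, Gbp8 (104 and 57.6 CPM), Gbp9 (48.7 and 22.6 CPM) and Gm4951 (67.7 and 21.7 CPM). In Acod1-high neutrophils all 3 counted relatives were higher, and Tgtp1, the near copy of Tgtp2, had 10 and 0 UMIs.

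Type I interferon-stimulated genes, a neighbouring response, had other values. In Acod1-high neutrophils 8 of 15 were lower with Trem2-/- marrow and none higher, with a median of -0.65. Cmpk2 was at 24.7 CPM in Trem2-/- and 112 CPM in Trem2+/+ cells there, and Ifit3 at 43.9 and 86.4 CPM. In Acod1-low neutrophils 9 of 13 were lower, with a median of -0.93. In T cells 4 of 9 were lower, with a median of -0.45, and in macrophages 1 of 15 was higher and none lower, with a median of -0.04. Among all better-counted genes 10.9% were higher and 14% lower in Acod1-high neutrophils, and 4.89% and 7.97% in Acod1-low neutrophils. These shares were 4.08% and 0.66% in T cells and 1.94% and 1.57% in macrophages. Partners in membrane targeting and LC3 conjugation had a median of 0.01 in macrophages, with 2 of 15 higher, and -0.21 in Acod1-high neutrophils, with none of 14 higher or lower. Dissociation stress genes had medians of 0.51 in T cells, 0.35 in endothelial cells and 0.09 in Acod1-high neutrophils, and their part in any ratio was not tested.

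**Figure D5:**
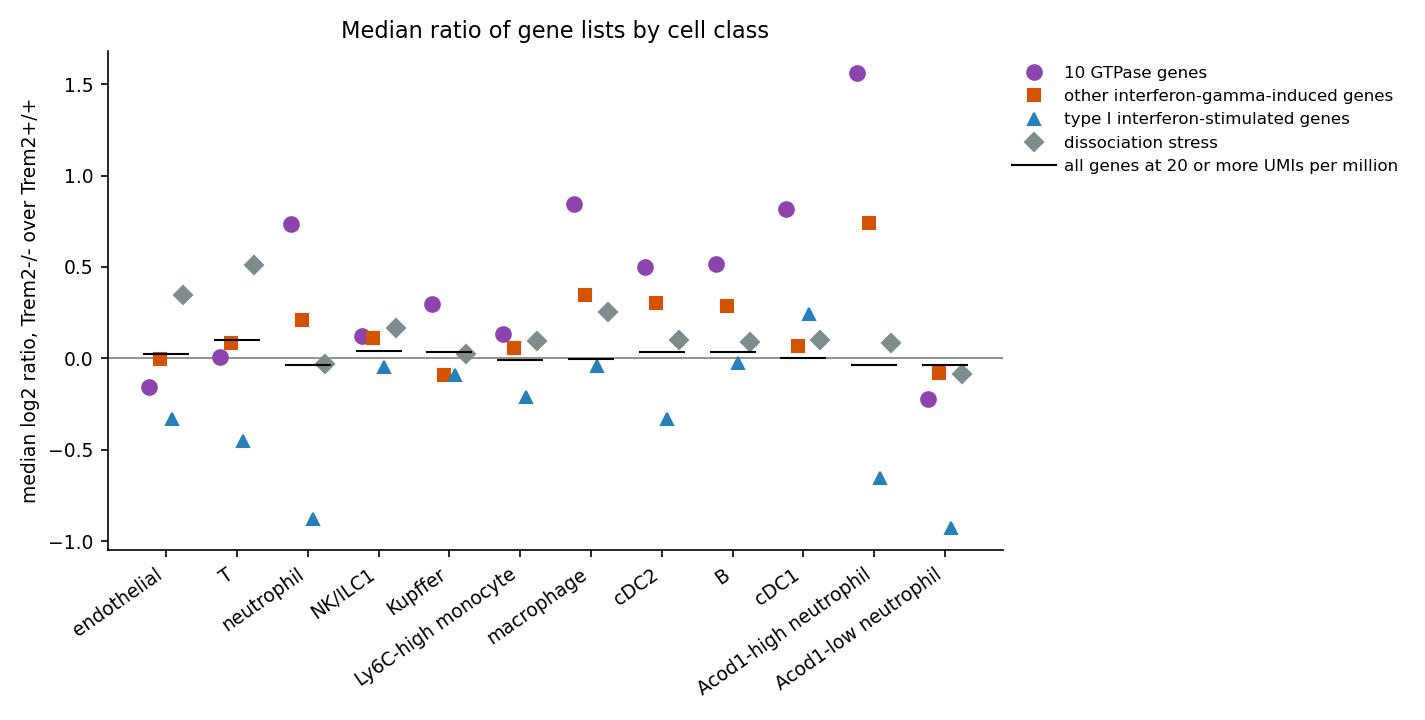
Median log2 ratio of the Trem2-/- over the Trem2+/+ library for the 10 GTPase genes and 3 other gene lists, by cell class, with black lines at the median of all better-counted genes. The GTPase genes are taken at any level and the other lists over better-counted genes only, so the points are not filtered alike. In Acod1-high neutrophils the GTPase genes stand at 1.56 and type I interferon-stimulated genes at -0.65; in T cells they stand at 0.01 and -0.45.

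The smaller classes are given by level only. Mature dendritic cells had a summed level of 553 CPM in 89 Trem2-/- cells and 406 CPM in 90 Trem2+/+ cells, with Gbp2 at 216 and 179 CPM and Gbp4 at 76.9 and 22.9 CPM. Plasmacytoid dendritic cells were at 271 and 286 CPM, cycling cells at 270.4 and 263 CPM, cholangiocytes at 367 and 223 CPM and stellate cells or fibroblasts at 688 and 684 CPM. Clusters left unnamed, 844 Trem2-/- and 591 Trem2+/+ cells, were at 593 and 498 CPM. An unnamed cluster of 164 and 71 cells with NK markers and Cd3e and Cd3g had Ifng at 452 and 244 CPM and the GTPase genes at a summed 594 and 570 CPM.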

How the data were processed

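Single-cell libraries of 10x 5' chemistry were prepared from sorted liver cells, per the labels' protocols. The deposited matrices hold UMI counts per gene and barcode, from Cell Ranger 5.0.1 (per the file headers) and mm10 (per the submitters' processing notes). The genes described and the lists were chosen with earlier results of these data known. Barcodes with 200 genes or more and no more than 10% mitochondrial UMIs were kept (Python 3.11.15, Scanpy 1.11.5). The doublet caller marked 5 Trem2-/- and 2 Trem2+/+ barcodes, so it had not worked and doublets remain. The libraries shared 56 barcode sequences. After scaling and log transformation, 2000 variable genes without the 10 genes, interferon lists and Trem genes, 30 components and 15 neighbours gave Leiden clusters at resolution 1 (leidenalg 0.10.2). Clusters were named from marker lists, and the limit that left clusters with NK markers, Cd3e and Cd3g unnamed was set after the clusters were seen. UMIs were summed per class and library and divided by the class total. Levels carry exact Poisson, shares exact binomial (Clopper-Pearson) and ratios exact conditional binomial 95% intervals. Where a library had 0 UMIs, the ratio was taken at 3 counts as a bound. Library totals were 25288032 UMIs with Trem2-/- and 27238586 with Trem2+/+ marrow. The text names the 10 genes, Trem2, list members and the genes most like their mean; some members of these lists are not reported here. Cluster-leading genes and clusters described singly, such as the Acod1-high neutrophils, were chosen after their values were seen. Of 32285 gene identifiers 32235 were found in GENCODE M21. Ratios and intervals were tested on simulated class sums with independent Poisson counts, which is the error the intervals assume. UMIs gathered in few cells, as in these data, were not part of that simulation.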

Additional observations from a re-analysis of the deposited data

How the results depend on the processing

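No paired analysis was possible because each marrow genotype has 1 library. Over the alternatives the median log2 ratio of the 10 genes ran from 0.63 to 0.96 in macrophages, 0.74 to 1.21 in neutrophils, 0.75 to 2.10 in Acod1-high neutrophils, 0.65 to 1.14 in cDC1, -0.09 to 0.18 in T cells and -0.23 to 0.03 in endothelial cells. The main summaries were 413 times the same and 80 times moved. Counts below are genes higher unless called lower, and the cause of a change was not tested unless the setting itself leaves genes out. At Leiden resolution 0.5 the neutrophil clusters merged, with medians of 0.75 (Acod1-high) and 0.74 (Acod1-low), 7 higher and 0 lower in the Acod1-low cluster, and Gbp2, Gbp3 and Tgtp2 at 0.75, 0.93 and 1.36. B cells then had 1 lower, and Ly6C-high monocytes 0 lower with Igtp at 0.14. At resolution 2 cDC2 had 5, B cells 1 lower and monocytes 0 lower. With interferon genes allowed in clustering, Kupffer cells had 1, monocytes 1 and 0 lower, and cDC2 6, with Igtp in monocytes at 0.023 and Tgtp2 in Kupffer cells at -0.065. Over all deposited barcodes cDC1 had 5 and monocytes 0 lower. The stricter cell filter gave monocytes 4 and 0 lower, cDC2 6 and Acod1-low neutrophils 5 lower, with Igtp in monocytes at 0.21. Without the 5% of barcodes with the highest doublet scores, Acod1-low neutrophils had 0, cDC1 5, cDC2 5 and monocytes 0 lower, with Igtp at 0.016. Without the 5% of cells with the most UMIs of the 10 genes, a choice made after seeing the data that removes cells by the measured values and is no check of stability, Acod1-low neutrophils had 2 and 0 lower with Gbp2 at 0.24 and Gbp3 at 0.037. Kupffer cells then had 0, monocytes 4 and 0 lower, NK/ILC1 2, T cells 2, B cells 1 lower and cDC2 1 lower. With clusters weighted equally, T cells had 1 and 1 lower, endothelial cells 1 and 2 lower, and B cells 1 lower. By mean per-cell CPM, Kupffer cells had 1 and 1 lower, NK/ILC1 0 and 2 lower, T cells 1, endothelial cells 1 and monocytes 0 lower. Median-of-ratios scaling gave T cells 1 lower. At a fold of 2, B cells had 3, Kupffer cells 1, NK/ILC1 0, cDC1 4, macrophages 1, neutrophils 3, Acod1-low neutrophils 0 lower and monocytes 0 lower. These counts cover the 10 genes at any level. Among all better-counted genes, 0.592% were higher at that fold in B cells, 1.13% in Kupffer cells and 0.6% in NK/ILC1. The share was 0.251% in cDC1, 0.407% in macrophages and 0.692% in neutrophils. Lower at that fold were 1.54% in Acod1-low neutrophils and 0.348% in monocytes. Among genes averaging 20 CPM or more, Acod1-low neutrophils had 0 and 1 lower, B cells 1, monocytes 0, cDC1 1 and neutrophils 4. Among those averaging 50 CPM or more, Acod1-high neutrophils had 5, macrophages 2 and neutrophils 3, which were all their members at that level. Of these, Igtp and Irgm1 in Acod1-high neutrophils and Gbp5 in neutrophils passed it through the Trem2-/- library. The cDC2 class had 1, NK/ILC1 0, monocytes 0 and 0 lower, and Acod1-low neutrophils 0 and 1 lower. No member averaged 50 CPM in B cells, where Ifi47 was highest at 36.9 CPM. The same held in cDC1, where Irgm1 was highest at 33.4 CPM. Over all genes at that level 6.49% were higher in Acod1-high neutrophils and 1.8% in NK/ILC1. The share was 2.11% in cDC2 and 1.93% in macrophages and in neutrophils. In Acod1-low neutrophils 2.6% were higher and 4.38% lower, and in monocytes 0.724% and 0.905%. By Spearman correlation 2 of the 10 most similar genes were shared. Thinned to 500 UMIs, shares of cells with at least 3 of the genes were 0.770% and 0.531% over all Trem2-/- and Trem2+/+ cells, 0.844% and 0.265% in macrophages, and 1.22% in Trem2+/+ Acod1-high neutrophils. Unthinned they were 17.8% and 12.4% over all cells and 28.7% and 13.8% in macrophages. Genes with few UMIs, such as Gbp3 and Gbp4 in cDC1, are limited by depth.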
